A study of Arabidopsis thaliana with 4 samples.

Results

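The nuclear genes for the photosystems and their light-harvesting antennae comprised 47 of the 33476 annotations in the expression table of an Arabidopsis mRNA-Seq experiment. They were chosen by locus, as the nuclear genes for the LHCB and LHCA antenna proteins, the PSA and PSB subunits, the Rieske protein PETC, the plastocyanins PETE1 and PETE2, and the ATP synthase subunits ATPC1 and ATPD. Expression was measured in 4 libraries of poly-A RNA, 2 from dividing tissue (shoot meristem with younger leaves) and 2 from non-dividing tissue, for which the oldest 4 to 6 leaves were taken,, to compare transcript levels between these tissues. All plants were Columbia carrying a GFP-tagged histone H3 under its own promoter. One library of each tissue came from the HTR5-GFP line, which tags an H3.3 variant, and the other from the HTR13-GFP line, which tags an H3.1 variant. Plants were 4 weeks old and had been kept at 20 to 22 °C in days of 8 h light and nights of 16 h, following 5 days of stratification at 4 °C. No plant without a tagged histone entered the comparison, and each line contributed 1 library per tissue, so that p-values measure the spread between these libraries, which may be partly technical.

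Photosystem II uses light to oxidize water and photosystem I uses it to reduce ferredoxin, with the cytochrome b6f complex and plastocyanin between them and the ATP synthase driven by the resulting proton gradient. The reaction centre proteins are mostly encoded in the chloroplast, whereas the chlorophyll-binding antenna proteins and many peripheral subunits are encoded in the nucleus and imported. In leaf mesophyll the nuclear genes are known for very abundant, light-regulated transcripts and for rising as proplastids become chloroplasts.

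All 47 members were protein-coding, lay on the 5 nuclear chromosomes (19 of them on chromosome 1) and were matched to RefSeq. Several are near-identical copies, which bears on how reads can be assigned to them. The genes for LHCB1.1 (AT1G29920), LHCB1.2 (AT1G29910) and LHCB1.3 (AT1G29930) form a cluster on chromosome 1, and their coding sequences of 804 bases differed at 47 positions between any of the 3 copies. The most divergent 60 bases of these coding sequences, coding positions 25 to 84, are shown to illustrate how little separates the copies, with the 8 positions that differ in capitals. They lie in RefSeq TAIR10.1 at chr1:10475809-10475868 on the minus strand, chr1:10473163-10473222 on the minus strand and chr1:10478095-10478154 on the plus strand.
LHCB1.1: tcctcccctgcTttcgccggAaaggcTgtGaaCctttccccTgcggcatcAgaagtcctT
LHCB1.2: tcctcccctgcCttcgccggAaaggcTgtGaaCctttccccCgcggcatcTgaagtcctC
LHCB1.3: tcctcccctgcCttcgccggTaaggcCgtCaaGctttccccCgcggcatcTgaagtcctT

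Coding identity among the 5 LHCB1 copies was between 86.8% and 96.4% in pairwise alignments. Of the 47 members, 35 had every 36-base stretch of their gene span unique in the genome, whereas 7 had fewer than 80% unique stretches, namely the 5 LHCB1 genes, LHCB2.1 and LHCB2.2. The lowest share was 66.9%, in LHCB2.2. How the authors' counting divided reads among these 7 genes is not given in the sources used here, so their single values are uncertain, and sums over each set of copies are given beside them.

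Because most members moved together, the 250 bases upstream of each RefSeq gene start were searched for 5 short motifs known from light-regulated plant promoters. These were the G-box CACGTG, bound by bZIP and bHLH factors, the I-box GATAAG, the motif CCAATC bound by GOLDEN2-LIKE (GLK) factors, and the evening element AAAATATCT, all on both strands, and the TATA box TATAAA on the gene's strand. No motif contains another. CCAATC was found in 14 of 47 members (29.8%) and in 10.2% of all 27443 nuclear protein-coding promoters of that length. The G-box was found in 9 members (19.1%, against 6.49% of all promoters) and the I-box in 11 (23.4%, against 12.3%). The evening element was found in 2 members (4.26%, against 2.36%) and the TATA box in 15 (31.9%, against 32.9%). CCAATC occurred in 7 of 14 LHCB genes, 3 of 6 LHCA genes, 3 of 5 genes for carriers and ATP synthase and 1 of 10 PSB genes, but in none of the 12 PSA genes. The median log2 fold change between tissues was −0.65 for the 14 members with CCAATC and −0.68 for the 33 without it, so the medians of these groups lay close together. With and without each other motif the medians were −0.62 and −0.72 for the G-box and −0.68 and −0.67 for the I-box. They were −0.55 and −0.67 for the evening element and −0.73 and −0.67 for the TATA box. The 15 members with none of the 5 motifs had a median of −0.79. These differences were not tested.

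Promoters are printed for 5 members that the results turn on: LHCB1.3, the member with the highest level, LHCB1.4, the member with the largest fall, LHCB4.1 and its copy LHCB4.3, which moved in opposite directions, and PSBQ2, which held 3 of the 5 motifs. ATPD and PETE2 also held 3 of the 5. Motif matches are in capitals. The sequences are credited to RefSeq, build TAIR10.1, and run toward the gene start from chr1:10477635-10477884, chr2:14524357-14524606, chr5:208616-208865 and chr2:16745378-16745627 on the plus strand and chr4:2673244-2673493 on the minus strand.
LHCB1.3: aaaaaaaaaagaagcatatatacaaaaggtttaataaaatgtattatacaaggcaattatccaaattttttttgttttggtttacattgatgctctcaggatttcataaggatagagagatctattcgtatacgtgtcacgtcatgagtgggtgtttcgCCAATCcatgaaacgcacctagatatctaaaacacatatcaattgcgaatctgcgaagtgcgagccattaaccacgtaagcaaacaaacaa
LHCB1.4: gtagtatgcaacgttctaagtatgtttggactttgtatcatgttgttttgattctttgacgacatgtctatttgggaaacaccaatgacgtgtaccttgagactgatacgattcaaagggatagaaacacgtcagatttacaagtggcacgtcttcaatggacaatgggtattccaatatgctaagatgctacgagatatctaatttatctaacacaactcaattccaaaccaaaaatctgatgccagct
LHCB4.1: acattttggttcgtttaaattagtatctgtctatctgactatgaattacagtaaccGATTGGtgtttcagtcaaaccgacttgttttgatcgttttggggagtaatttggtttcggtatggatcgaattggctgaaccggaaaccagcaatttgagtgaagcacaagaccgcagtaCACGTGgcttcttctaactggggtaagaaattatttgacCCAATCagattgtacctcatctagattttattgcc
LHCB4.3: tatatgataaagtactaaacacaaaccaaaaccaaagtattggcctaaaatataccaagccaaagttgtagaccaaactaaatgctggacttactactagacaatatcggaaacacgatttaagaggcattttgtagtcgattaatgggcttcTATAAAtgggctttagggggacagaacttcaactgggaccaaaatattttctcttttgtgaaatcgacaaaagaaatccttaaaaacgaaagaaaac
PSBQ2: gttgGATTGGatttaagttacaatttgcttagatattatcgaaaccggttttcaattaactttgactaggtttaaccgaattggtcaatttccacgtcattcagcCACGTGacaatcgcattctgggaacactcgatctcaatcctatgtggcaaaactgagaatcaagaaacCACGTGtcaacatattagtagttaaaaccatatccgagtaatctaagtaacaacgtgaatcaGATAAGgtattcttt

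In these windows LHCB1.3 carried 1 CCAATC and LHCB1.4 none of the 5 motifs. LHCB4.1 carried CCAATC on both strands and a G-box, whereas LHCB4.3 carried only a TATA box. A match is a string of letters in the window and not a measured binding site. The windows end at RefSeq gene starts, which for most members lie upstream of the TAIR9 starts used for expression. The PSBS window ended at base 16870220, whereas its TAIR9 annotation starts at base 16871696. The LHCB1.4 window ended at base 14524606, whereas its TAIR9 annotation starts at base 14524756. Bases between such starts were not searched, so a motif missing from a window may still lie there.

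Expression was given as FPKM, that is fragments corrected for annotation length and mapped reads, which allows levels to be compared between genes. The FPKM of a library summed to between 700884 and 715002, read numbers behind single values were not recovered, and between 13084 and 14269 annotations were listed at 0. Of 10 markers of shoot meristem and dividing cells, 7 reached a mean of 1 FPKM. All 7 were called higher in dividing tissue, against 51.7% of all annotations tested. The list summed to 91.1 and 93.3 FPKM in dividing tissue against 3.33 and 3.79 FPKM in non-dividing tissue. Among these markers, the meristem gene STM (AT1G62360) had 20.7 and 21.6 FPKM in dividing tissue and was listed at 0 in both non-dividing libraries. WUS and CLV3, which mark small domains of the meristem, were listed at 0 in all 4 libraries. Of 6 markers of mature or ageing leaf that were tested, 4 were lower in dividing tissue, against 18.2% of all annotations tested. One more of them, DIN6 (AT3G47340), was higher, and SAG12 was listed at 0 in every library. DIN6 carried 1777 and 1877 FPKM in dividing tissue against 1095 and 1189 FPKM in non-dividing tissue, so the list as a whole summed to 1816 and 1911 FPKM in dividing tissue, against 1296 and 1435 FPKM in non-dividing tissue. Root markers summed to 1.32 and 0.928 FPKM in dividing tissue against 0 in non-dividing tissue, and flower markers to under 1 FPKM in every library. Transcripts encoded in the chloroplast, which poly-A selection captures poorly, amounted to 1043 and 1216 FPKM in dividing tissue against 6742 and 1862 FPKM in non-dividing tissue, so that the HTR5-GFP library of non-dividing tissue stood apart. The part of cell composition in the results on the photosystem genes was not tested. In bulk tissue, fewer green cells and less transcript per cell cannot be told apart.

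The members were among the most abundant transcripts of both tissues and were lower in dividing tissue. Together they summed to 90026 and 80737 FPKM in the dividing libraries of the HTR5-GFP and HTR13-GFP lines, and to 141771 and 144300 FPKM in the non-dividing libraries of the same lines. This was 12.7% and 11.4% of all FPKM in dividing tissue, against 19.8% and 20.6% in non-dividing tissue. The ratio of the sums, dividing to non-dividing, was 0.597, or 0.635 for the HTR5-GFP line and 0.560 for the HTR13-GFP line. It was 0.599 without LHCB1.3, 0.597 without the 9 members whose annotation overlaps another, and 0.592 without the non-dividing library that stood apart in chloroplast transcripts. Among the 100 most abundant annotations of a library were 31 and 30 members in dividing tissue, against 35 and 34 members in non-dividing tissue. No member was listed at 0.

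**Figure D1:**
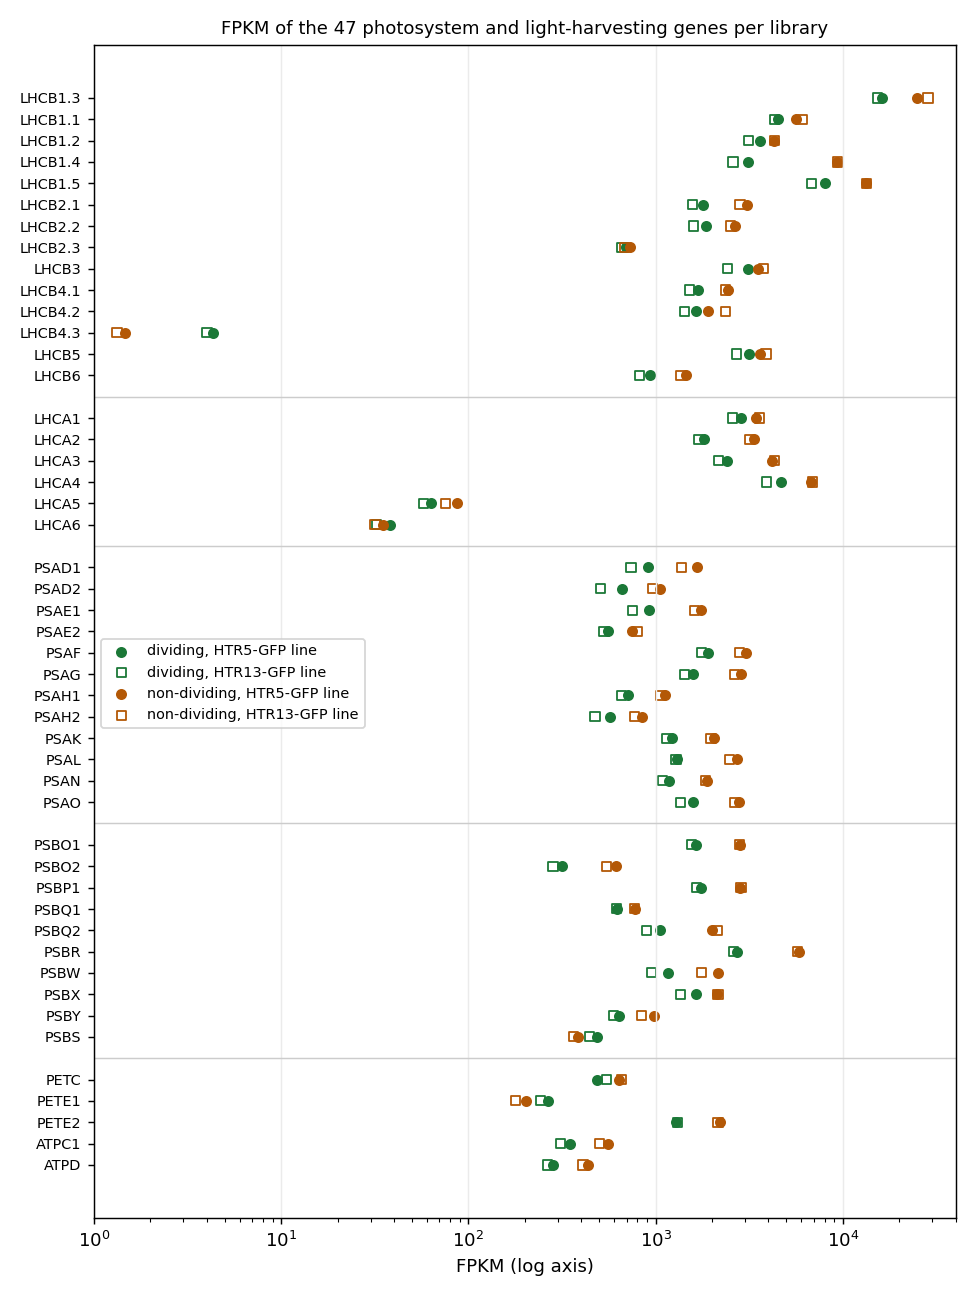
FPKM of each member (log axis) in the 4 libraries, with dividing tissue in green and non-dividing tissue in orange, filled circles for the HTR5-GFP line and open squares for the HTR13-GFP line, and families separated by lines. In 42 of 47 genes both green points lie left of both orange points, and LHCB4.3, PSBS and PETE1 show the opposite order.

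All 47 members passed the filter, a mean of 1 FPKM or more, and were tested with limma on log2(FPKM + 1), in a fit over all 17967 annotations that passed. Dividing tissue showed lower expression of 36 members (adjusted p below 0.05) and higher expression of 3, LHCB4.3, PSBS and PETE1. Among all annotations tested 18.2% were called lower and 51.7% higher in dividing tissue. Both dividing libraries lay below both non-dividing libraries in 42 members, against 24.8% of all annotations, and above them in 3 members, against 62.2% of all annotations. The median log2 fold change, dividing minus non-dividing, was −0.67 (SD 0.44) over the members and 0.38 over all annotations. The standard errors of the members were at most 0.1997.

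**Figure D2:**
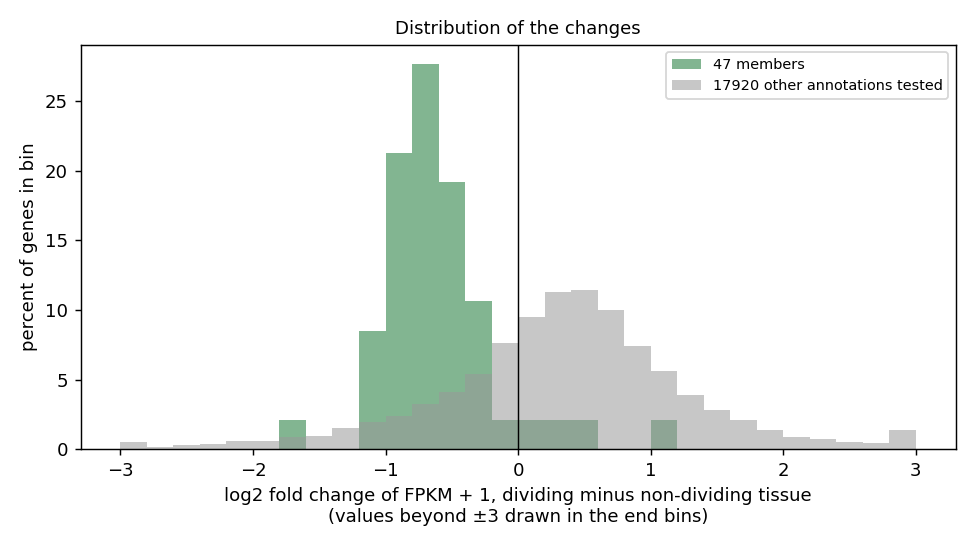
Distribution of log2 fold changes of FPKM + 1, dividing minus non-dividing tissue, as the percent of genes in each bin, for the 47 members (green) and the other 17920 annotations tested (grey). The members centre on −0.67 and the other annotations on 0.38, and 3 members called higher lie to the right of 0.

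With the median of all annotations above 0, FPKM as deposited was not centred between the tissues. When libraries were rescaled so that a typical annotation had equal values in all of them, the median of the members became −1.08 and that of all annotations 0.02, and the ratio of sums became 0.450. After this rescaling 43 members were called lower and 1 higher, against 30.6% and 31.1% of all annotations. The members that were not called then were LHCA6, PSBS and PETE1, and LHCB4.3 remained higher. The rises of PSBS and PETE1 were thus called on the deposited scale only. Under quantile normalization 24 members were called lower and 1 higher, against 5243 and 5770 of the 17967 annotations tested. In that setting LHCB1.1, LHCB1.2, LHCB2.3, LHCB5, LHCA1 and LHCA6, none of them called, changed sign. When the fall was required to exceed 1.5-fold, 4 members were called on the deposited scale, LHCB1.4, PSAL, PSBQ2 and PSBR, against 6.95% of all annotations. With 2 libraries per tissue the calls also depended on each library. The median log2 fold change of the members was −0.59 without the HTR13-GFP library of dividing tissue. It was −0.63 without the HTR5-GFP library of non-dividing tissue. With no filter on mean FPKM, 3 members were called lower from the same fold changes, against 7.13% of all annotations, and 24 when the variance trend was left out as well, an alternative chosen after the data were seen.

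**Figure D3:**
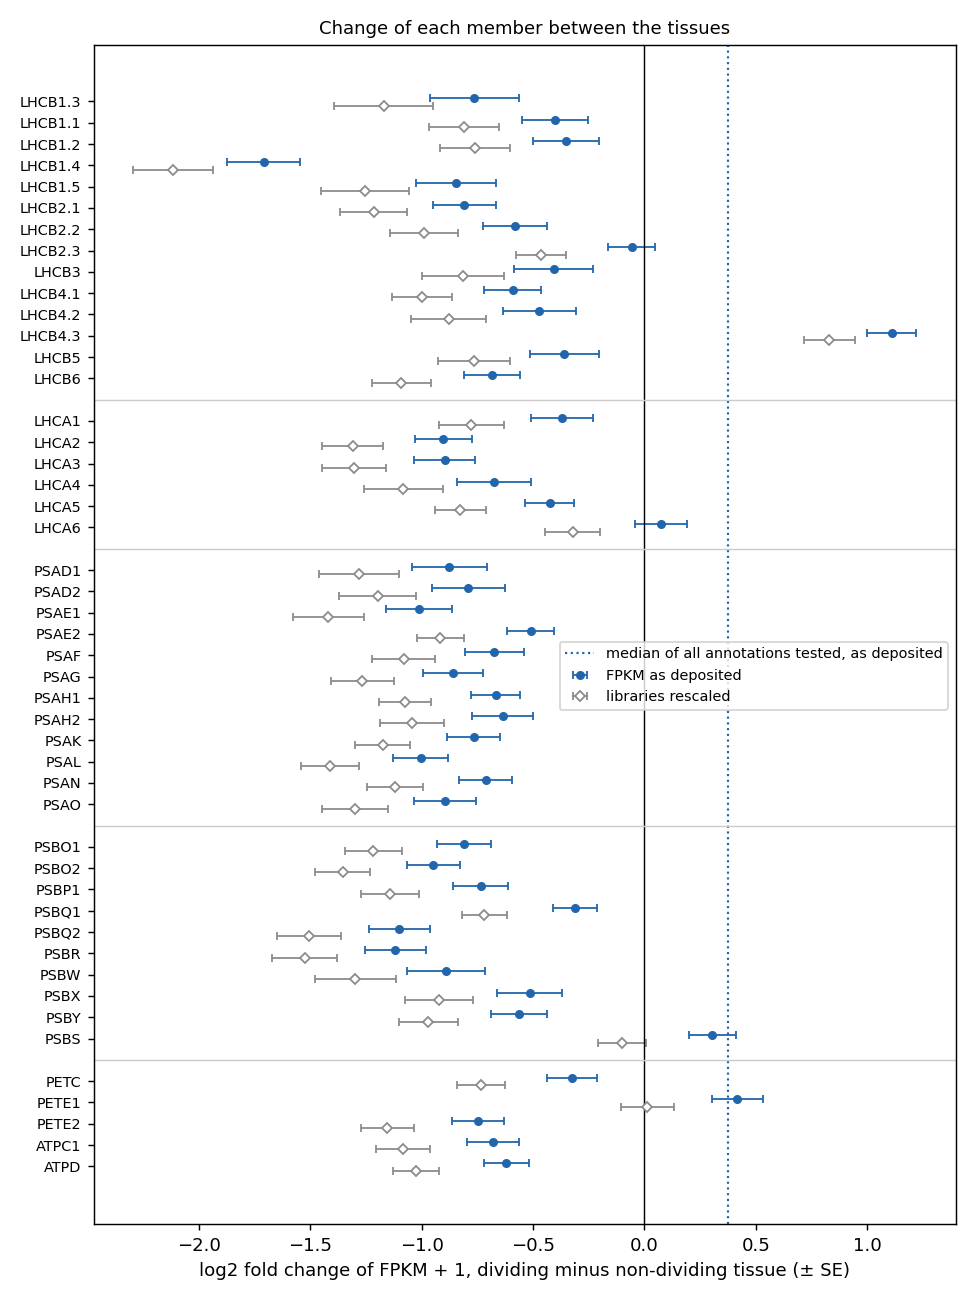
Log2 fold change of FPKM + 1 for each member, dividing minus non-dividing tissue, with its standard error, for FPKM as deposited (blue circles) and after rescaling of the libraries (open diamonds), beside the median of all annotations as deposited (dotted line at 0.38). On either scale LHCB1.4 has the lowest value and LHCB4.3 the highest, and PSBS changes from 0.31 to −0.10 with rescaling.

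The 14 LHCB genes encode the antenna of photosystem II, with LHCB1, LHCB2 and LHCB3 forming the trimers of LHCII and LHCB4 (CP29), LHCB5 (CP26) and LHCB6 (CP24) the monomers beside the core. They contributed 55.9% and 55.6% of the members' FPKM in dividing tissue, against 54.2% and 56.4% in non-dividing tissue. Of these 14 genes 7 were lower, 1 was higher and 6 did not pass the test. Among all annotations tested 18.2% were lower and 51.7% higher. Under quantile normalization 3 LHCB genes were called lower, against 5243 of the 17967 annotations tested. With no filter on mean FPKM 0 were called lower, against 7.13% of all annotations. The LHCB log2 fold changes had the widest spread of the 5 families, with an SD of 0.60 around a median of −0.53.

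LHCB1.3, also known as CAB1 (chromosome 1, 10478005 to 10479048, TAIR9), was the most abundant annotation in both tissues. It had 16126 and 15356 FPKM in dividing tissue against 25009 and 28524 FPKM in non-dividing tissue. The groups did not overlap, and it fell by 0.76 (SE 0.20) on the log2 scale (limma adjusted p = 0.0212). On log2(FPKM + 0.1) LHCB1.3 was not called (limma adjusted p = 0.0559), nor was it called with no filter on mean FPKM. LHCB1.5 (AT2G34420) had 8049 and 6801 FPKM in dividing tissue against 13261 and 13342 FPKM in non-dividing tissue, a change of −0.85 (SE 0.18, limma adjusted p = 0.0107). Its annotation overlaps another and the libraries were not stated to keep strand, so reads of the overlap cannot be attributed.

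LHCB1.4 (AT2G34430; chromosome 2, 14524756 to 14525763, TAIR9), the neighbour of LHCB1.5, showed the largest fall of any member. It had 3114 and 2590 FPKM in dividing tissue against 9268 and 9326 FPKM in non-dividing tissue. The log2 fold change was −1.71 (SE 0.17, limma adjusted p = 0.000954), and it was the third most abundant annotation in non-dividing tissue but ranked 11 in dividing tissue. LHCB1.1 had 4502 and 4337 FPKM in dividing tissue against 5602 and 6087 FPKM in non-dividing tissue. LHCB1.2 had 3593 and 3130 FPKM in dividing tissue against 4266 and 4301 FPKM in non-dividing tissue. Both dividing libraries were below both non-dividing libraries for these copies as well, but neither passed the test (log2 fold change −0.40, SE 0.15, limma adjusted p = 0.0593 for LHCB1.1). With the replicate number as a block, LHCB1.1 passed at an adjusted p of 0.0494. The values of LHCB1.2 were −0.35 (SE 0.15) and an adjusted p of 0.0851 with limma, and both copies turned to small positive values under quantile normalization. The summed FPKM of the LHCB1 set, which depends less on how reads were divided among its copies of similar length, was 35384 and 32215 in dividing tissue against 57406 and 61581 in non-dividing tissue, and their ratio was 0.568.

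The LHCB2 proteins are, with LHCB1, the LHCII subunits that the kinase STN7 phosphorylates during state transitions. LHCB2.1 (AT2G05100) had 1800 and 1572 FPKM in dividing tissue against 3080 and 2821 FPKM in non-dividing tissue, and LHCB2.1 fell by 0.81 (SE 0.14) on the log2 scale (limma adjusted p = 0.00570). LHCB2.2 (AT2G05070) had 1869 and 1591 FPKM in dividing tissue against 2657 and 2510 FPKM in non-dividing tissue, giving a log2 fold change of −0.58 (SE 0.14, limma adjusted p = 0.0174). The third copy behaved differently on the deposited scale. LHCB2.3 (AT3G27690), which has 99.8% unique stretches, had 695 and 660 FPKM in dividing tissue against 728 and 683 FPKM in non-dividing tissue. These ranges overlap, and its log2 fold change was −0.06 (SE 0.11, limma adjusted p = 0.651). After rescaling LHCB2.3 was called lower, at −0.46 (limma adjusted p = 0.0185).

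LHCB4.1 (AT5G01530) had 1683 and 1515 FPKM in dividing tissue against 2440 and 2373 FPKM in non-dividing tissue, giving a log2 fold change of −0.59 (SE 0.13, limma adjusted p = 0.0115). LHCB4.2 (AT3G08940) had 1640 and 1432 FPKM in dividing tissue against 1908 and 2366 FPKM in non-dividing tissue, giving a log2 fold change of −0.47 (SE 0.17, limma adjusted p = 0.0520). It passed with the replicate block (adjusted p = 0.0378), and its annotation overlaps another. The third gene, LHCB4.3 (AT2G40100; chromosome 2, 16745803 to 16747400, TAIR9), also called LHCB8, was the weakest member by far and moved the other way. It had 4.32 and 4.01 FPKM in dividing tissue against 1.46 and 1.32 FPKM in non-dividing tissue. The log2 fold change was 1.11 (SE 0.11, limma adjusted p = 0.00102), it was 0.83 after rescaling (adjusted p = 0.00318), and all 36-base stretches of the gene were unique. Its share of the LHCB4 set stayed below 1% in all libraries.

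LHCB6 fell (AT1G15820; log2 fold change −0.68, SE 0.13, limma adjusted p = 0.00665). LHCB3 (AT5G54270) had 3125 and 2427 FPKM in dividing tissue against 3534 and 3774 FPKM in non-dividing tissue, and LHCB5 (AT4G10340) had 3166 and 2693 FPKM in dividing tissue against 3607 and 3887 FPKM in non-dividing tissue. Neither passed the test (limma adjusted p = 0.0926 for LHCB3 and 0.0901 for LHCB5), although their libraries did not overlap, and both were called lower after rescaling. In both genes the HTR13-GFP library of dividing tissue was the lowest of the 4. This was not particular to them, as 45 of 47 members were lower in it than in the HTR5-GFP library of dividing tissue. Among all 17967 annotations tested 7987 were.

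The LHCA proteins bind to photosystem I, where LHCA1 to LHCA4 form the crescent-shaped antenna and LHCA5 and LHCA6 link photosystem I to the chloroplast NADH dehydrogenase-like complex. The family summed to 11876 and 10447 FPKM in dividing tissue against 17920 and 18081 FPKM in non-dividing tissue. LHCA2, LHCA3, LHCA4 and LHCA5 were lower, and LHCA1 and LHCA6 did not pass.

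The most abundant was LHCA4 (AT3G47470), with 4694 and 3914 FPKM in dividing tissue against 6787 and 6897 FPKM in non-dividing tissue, giving a log2 fold change of −0.67 (SE 0.17, limma adjusted p = 0.0175). LHCA2 (AT3G61470) changed most, with 1813 and 1689 FPKM in dividing tissue against 3360 and 3187 FPKM in non-dividing tissue, giving a log2 fold change of −0.90 (SE 0.13, limma adjusted p = 0.00296). LHCA3 (AT1G61520) changed by nearly the same amount, −0.90 (SE 0.14, limma adjusted p = 0.00363). These 3 subunits of the main antenna each had separate ranges in the 2 tissues. LHCA1 (AT3G54890) had 2869 and 2579 FPKM in dividing tissue against 3444 and 3589 FPKM in non-dividing tissue, which gave −0.37 (SE 0.14, limma adjusted p = 0.0630). The NDH linkers were far less abundant. LHCA5 (AT1G45474) had 63.0 and 57.5 FPKM in dividing tissue against 87.0 and 75.6 FPKM in non-dividing tissue and was called lower (log2 fold change −0.42, SE 0.11, limma adjusted p = 0.0207). LHCA6 (AT1G19150) had 38.1 and 32.3 FPKM in dividing tissue against 35.0 and 31.7 FPKM in non-dividing tissue. The LHCA6 ranges overlap, its log2 fold change was 0.07 (SE 0.12, limma adjusted p = 0.597), and the sign turned to −0.32 after rescaling.

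The 12 PSA genes encode the nuclear subunits of photosystem I, and all 12 were called lower in dividing tissue on the deposited scale, after rescaling and with the replicate block. The deposited scale called 18.2% of all annotations lower and rescaling 30.6%. Under quantile normalization 10 PSA genes were called lower (not PSAF and PSAN), against 5243 of the 17967 annotations tested. With no filter on mean FPKM none was called lower, against 7.13% of all annotations. Without the HTR13-GFP library of dividing tissue the log2 fold changes of PSAD1 and PSAD2 shrank to −0.72 and −0.60. The PSA genes were the most uniform family, with log2 fold changes between −1.01 and −0.51 and an SD of 0.15 around a median of −0.78. Their mean FPKM lay between 521 and 1832 in dividing tissue, against 776 and 2923 in non-dividing tissue. Their sum was 13119 and 11734 FPKM in dividing tissue against 22530 and 20952 FPKM in non-dividing tissue.

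PSAF (AT1G31330), which docks plastocyanin, was the most abundant of them, with 1901 and 1763 FPKM in dividing tissue against 3039 and 2806 FPKM in non-dividing tissue (log2 fold change −0.67, SE 0.13, limma adjusted p = 0.00815). PSAL (AT4G12800), which with PSAH and PSAO lies at the side where LHCII docks, had 1301 and 1285 FPKM in dividing tissue against 2725 and 2473 FPKM in non-dividing tissue. PSAL fell by 1.01 (SE 0.13) on the log2 scale and was the only PSA gene past the 1.5-fold minimum (limma adjusted p = 0.0398 in that test). PSAO (AT1G08380) changed by −0.89 (SE 0.14, limma adjusted p = 0.00392).

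PSAD and PSAE form the ferredoxin docking site on the stromal side, and each has a pair of genes. PSAD1 (AT4G02770) had 916 and 739 FPKM in dividing tissue against 1661 and 1374 FPKM in non-dividing tissue. PSAD2 (AT1G03130) had 663 and 508 FPKM in dividing tissue against 1053 and 959 FPKM in non-dividing tissue. These copies changed alike, by −0.88 (SE 0.17, limma adjusted p = 0.00792) for PSAD1 and −0.79 (SE 0.16, adjusted p = 0.00999) for PSAD2. PSAE1 (AT4G28750) had 927 and 750 FPKM in dividing tissue against 1754 and 1615 FPKM in non-dividing tissue and had the lowest log2 fold change of the family (−1.01, SE 0.15, limma adjusted p = 0.00334). PSAE2 (AT2G20260) had 560 and 531 FPKM in dividing tissue against 752 and 801 FPKM in non-dividing tissue and had the highest (−0.51, SE 0.11, limma adjusted p = 0.00982). The fall of PSAE1 was within its error of that of PSAL, and the PSAE2 annotation overlaps another.

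PSAH1 (AT3G16140) had 711 and 659 FPKM in dividing tissue against 1118 and 1061 FPKM in non-dividing tissue. PSAH2 (AT1G52230) had 569 and 474 FPKM in dividing tissue against 849 and 768 FPKM in non-dividing tissue. Both fell by similar amounts, with log2 fold changes of −0.67 (SE 0.11, limma adjusted p = 0.00481) for PSAH1 and −0.64 (SE 0.14, adjusted p = 0.0112) for PSAH2. The remaining subunits PSAG (AT1G55670), PSAK (AT1G30380) and PSAN (AT5G64040) changed by −0.86, −0.77 and −0.71 (limma adjusted p between 0.00369 and 0.00487).

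The 10 PSB genes encode nuclear subunits of photosystem II, among them the extrinsic proteins of the oxygen-evolving complex on the lumenal side. Of these 9 were lower and 1, PSBS, was higher in dividing tissue, against 18.2% and 51.7% of all annotations tested. Under quantile normalization 5 PSB genes were called lower, against 5243 of the 17967 annotations tested. With no filter on mean FPKM 1 was called lower, against 7.13% of all annotations. The 10 PSB genes summed to 12051 and 10954 FPKM in dividing tissue against 20467 and 20005 FPKM in non-dividing tissue. The median log2 fold change was −0.77.

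PSBR (AT1G79040), a small protein needed for stable assembly of the extrinsic proteins, was the most abundant of the family and fell most. It had 2732 and 2594 FPKM in dividing tissue against 5806 and 5751 FPKM in non-dividing tissue, giving a log2 fold change of −1.12 (SE 0.14, limma adjusted p = 0.00185). Its annotation overlaps another. PSBO, which shields the manganese cluster, has a major and a minor gene that changed alike. PSBO1 (AT5G66570) had 1647 and 1561 FPKM in dividing tissue against 2815 and 2811 FPKM in non-dividing tissue (−0.81, SE 0.12, limma adjusted p = 0.00351). PSBO2 (AT3G50820) had 317 and 283 FPKM in dividing tissue against 613 and 548 FPKM in non-dividing tissue (−0.95, SE 0.12, limma adjusted p = 0.00196). PSBP1 (AT1G06680), the second extrinsic protein, changed by −0.73 (SE 0.12, limma adjusted p = 0.00497).

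PSBQ, the third extrinsic protein, also has a pair of genes, and these changed by unequal amounts. PSBQ2 (AT4G05180) had 1050 and 891 FPKM in dividing tissue against 2006 and 2145 FPKM in non-dividing tissue. PSBQ1 (AT4G21280) had 626 and 618 FPKM in dividing tissue against 773 and 772 FPKM in non-dividing tissue. The ranges were separate for both, and the log2 fold change was −1.10 (SE 0.14, limma adjusted p = 0.00200) for PSBQ2 but −0.31 (SE 0.10, adjusted p = 0.0392) for PSBQ1. Under quantile normalization PSBQ1 was not called (−0.26, limma adjusted p = 0.0688). Both PSBQ genes consisted only of unique 36-base stretches and neither annotation overlaps another.

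PSBW (AT2G30570), PSBX (AT2G06520) and PSBY (AT1G67740), low-mass membrane subunits, changed by −0.89, −0.51 and −0.56 (limma adjusted p at most 0.0275). PSBS (AT1G44575), which triggers the dissipation of excess light energy as heat, was the exception. It had 485 and 445 FPKM in dividing tissue against 387 and 365 FPKM in non-dividing tissue, giving a log2 fold change of 0.31 (SE 0.10, limma adjusted p = 0.0483). The call was lost and the sign turned after rescaling, with −0.10 (limma adjusted p = 0.455), although PSBS had the highest log2 fold change of its family on both scales.

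The carriers and ATP synthase genes were less abundant, with a sum of 2680 and 2675 FPKM in dividing tissue against 4046 and 3900 FPKM in non-dividing tissue. PETC (AT4G03280), the Rieske iron-sulphur protein of the cytochrome b6f complex, had 488 and 545 FPKM in dividing tissue against 636 and 657 FPKM in non-dividing tissue, and changed least among the falling genes of the family (−0.33, SE 0.11, limma adjusted p = 0.0476). On log2(FPKM + 0.1) PETC was not called (limma adjusted p = 0.0509). ATPC1 (AT4G04640) and ATPD (AT4G09650), the gamma and delta subunits of the chloroplast ATP synthase, changed by −0.68 and −0.62 (limma adjusted p = 0.00526 and 0.00440).

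Plastocyanin, the copper protein that carries electrons to photosystem I, is encoded by PETE2, the major gene, and PETE1. PETE2 (AT1G20340) had 1291 and 1312 FPKM in dividing tissue against 2217 and 2152 FPKM in non-dividing tissue, giving a log2 fold change of −0.75 (SE 0.12, limma adjusted p = 0.00385). PETE1 (AT1G76100) had 267 and 242 FPKM in dividing tissue against 203 and 178 FPKM in non-dividing tissue, giving a log2 fold change of 0.42 (SE 0.11, limma adjusted p = 0.0241). After rescaling PETE1 was at 0.01 (limma adjusted p = 0.935) while PETE2 was at −1.15, so that PETE1 was called higher on the deposited scale only, and the difference between the copies was not tested.

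Within several sets the copies contributed different shares in the 2 tissues. These shares do not depend on the scaling between libraries, since both copies are read from the same library, and they are given as a description with no test. PETE1 made up 17.2% and 15.6% of plastocyanin FPKM in dividing tissue against 8.38% and 7.65% in non-dividing tissue. PSBQ1 made up 37.3% and 41.0% of its set in dividing tissue against 27.8% and 26.5% in non-dividing tissue. PSAE2 made up 37.6% and 41.4% of its set in dividing tissue against 30.0% and 33.1% in non-dividing tissue. In each of these sets the copy with the smaller share in mature leaves had a larger one in dividing tissue.

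The same held for LHCB2.3, with 15.9% and 17.3% of LHCB2 FPKM in dividing tissue against 11.3% and 11.4% in non-dividing tissue. LHCB1.4 went the other way, with 8.80% and 8.04% of LHCB1 FPKM in dividing tissue against 16.1% and 15.1% in non-dividing tissue, while LHCB1.1 and LHCB1.2 had larger shares in dividing tissue and LHCB1.3 and LHCB1.5 overlapped. Shares within LHCB1 and between LHCB2.1 and LHCB2.2 rest on the uncertain assignment of reads. The PSAD and PSAH sets showed overlapping shares in the tissues. PSBO1 differed by little, with 83.8% and 84.6% of its set in dividing tissue against 82.1% and 83.7% in non-dividing tissue. These ranges were separate, and the minor copy PSBO2 had the smaller share in dividing tissue (16.2% and 15.4% against 17.9% and 16.3%). That direction is opposite to the one of PETE1, PSBQ1 and PSAE2.

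**Figure D4:**
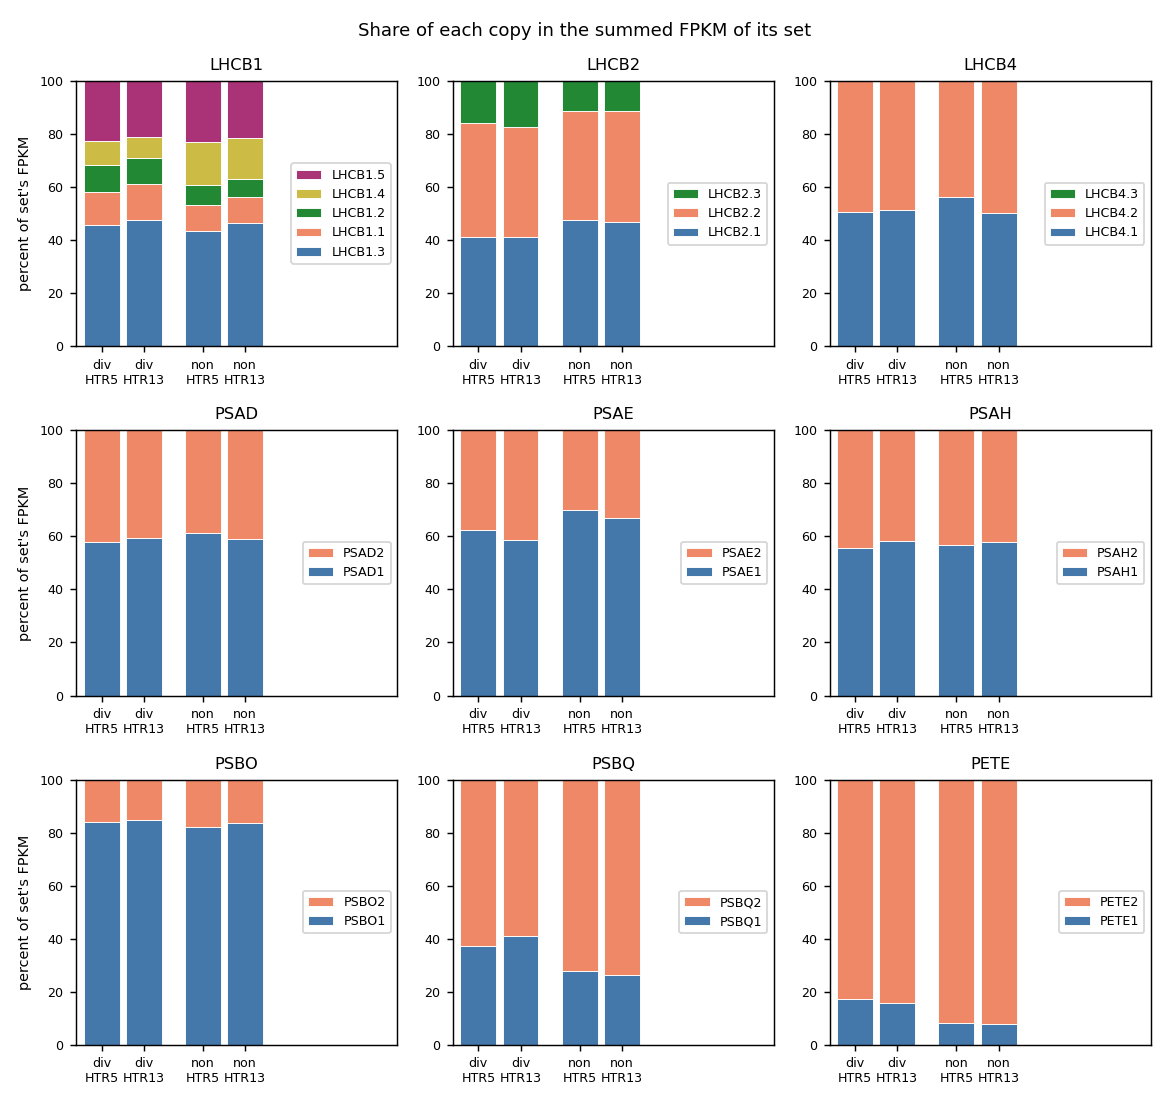
Share of each copy in the summed FPKM of its set (percent), in the dividing (div) and non-dividing (non) libraries of the HTR5-GFP and HTR13-GFP lines, for 9 sets of copies. LHCB1.4 takes 8.80% and 8.04% of its set in dividing tissue against 16.1% and 15.1% in non-dividing tissue, and PETE1 takes 17.2% and 15.6% against 8.38% and 7.65%.

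The order of the members by level differed little between libraries. Spearman's rho across the 47 genes was 0.995 between the dividing libraries and 0.994 between the non-dividing libraries, and 0.977 and 0.983 between the tissues within the HTR5-GFP and HTR13-GFP lines, as a description across genes that share these libraries. Across the same 47 genes more abundant members tended to have lower log2 fold changes, with Pearson's r of −0.67 between log2 mean FPKM and log2 fold change, and Spearman's rho of −0.38. LHCB4.3, with the highest log2 fold change, lay far from the rest at a mean of 2.78 FPKM, against 34.3 FPKM for LHCA6, the next lowest. The correlation without LHCB4.3 was not computed, and the mean FPKM holds values that also enter the fold change.

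Both lines showed the same direction in every member, and they differed in its size. The log2 ratio of dividing to non-dividing tissue was lower in the HTR13-GFP line for 38 of 47 members, among them LHCB4.3, LHCA6 and PSBS with smaller positive ratios, compared with 9310 of the 17967 annotations tested. In dividing tissue 45 members were lower in the HTR13-GFP than in the HTR5-GFP library, compared with 7987 of the 17967 annotations tested. The median log2 difference was −0.15 for the members and 0.02 for all annotations. In non-dividing tissue 31 members were lower in the HTR13-GFP library, compared with 7920 of the 17967 annotations. The medians there were −0.08 for the members and 0.02 for all annotations. LHCB3 had the log2 ratios −0.64 in the HTR13-GFP line and −0.18 in the HTR5-GFP line, and LHCB4.2 had −0.72 in the HTR13-GFP line and −0.22 in the HTR5-GFP line. The line and the single library cannot be told apart.

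**Figure D5:**
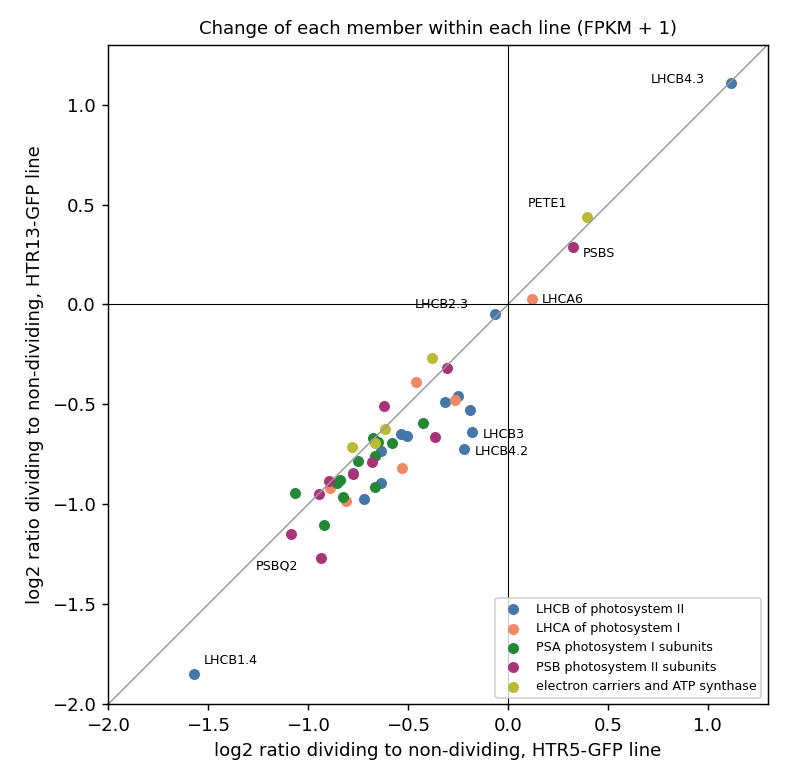
Log2 ratio of FPKM + 1, dividing to non-dividing tissue, for the HTR5-GFP line (horizontal axis) and the HTR13-GFP line (vertical axis), 1 point per member coloured by family, with the line of equal values. Points below the line had a lower ratio in the HTR13-GFP line, as for 38 of 47 members, and all points lie in the lower left or upper right quadrant.

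Other genes of the pathway were counted list by list, in the same fit that called 18.2% of all annotations lower and 51.7% higher. After rescaling these shares were 30.6% and 31.1%. Among 10 partners of the members, such as ferredoxins, ferredoxin-NADP reductases and proteins of cyclic electron flow, 7 were lower and none higher in dividing tissue. Their median log2 fold change was −0.47, and after rescaling 9 were lower and 0 higher. ATPG (AT4G32260), a further nuclear subunit of the ATP synthase, had 270 and 265 FPKM in dividing tissue against 449 and 439 FPKM in non-dividing tissue, giving a log2 fold change of −0.73 (SE 0.09, limma adjusted p = 0.00200). PGR5 (AT2G05620), required for cyclic electron flow, had 99.5 and 104 FPKM in dividing tissue against 151 and 160 FPKM in non-dividing tissue (log2 fold change −0.60, SE 0.09, limma adjusted p = 0.00328). The major leaf ferredoxin FD2 (AT1G60950) did not pass, with 1457 and 1658 FPKM in dividing tissue against 1848 and 1705 FPKM in non-dividing tissue (limma adjusted p = 0.252). FD2 was called lower after rescaling (limma adjusted p = 0.0162).

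Of 8 LHC-like proteins, which are related to the antenna proteins but are not bulk antenna, 2 were lower and 1 was higher. After rescaling 5 were lower and 1 was higher. OHP2 (AT1G34000) and SEP2 (AT2G21970) were lower. LIL3.1 (AT4G17600), known to anchor enzymes of chlorophyll synthesis, had 74.3 and 72.7 FPKM in dividing tissue against 45.0 and 39.0 FPKM in non-dividing tissue, giving a log2 fold change of 0.80 (SE 0.10, limma adjusted p = 0.00215) that was also called after rescaling.

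Assembly factors and antenna kinases went in both directions on the deposited scale, with 3 of 14 lower, 3 higher and a median log2 fold change of 0.09. After rescaling 8 were lower and 2 higher, with a median of −0.31. CPSRP54 (AT5G03940), which delivers antenna proteins to the thylakoid, had 75.6 and 71.8 FPKM in dividing tissue against 38.8 and 38.2 FPKM in non-dividing tissue (0.92, SE 0.08, limma adjusted p = 0.000798). PYG7 (AT1G22700), a photosystem I assembly factor, was higher by 0.73 (SE 0.08, limma adjusted p = 0.00143). Both were also called higher after rescaling, whereas the third, PSB28, was not. HCF136 (AT5G23120), a photosystem II assembly factor, had 93.3 and 94.6 FPKM in dividing tissue against 167 and 176 FPKM in non-dividing tissue (−0.86, SE 0.09, limma adjusted p = 0.00105). The kinase STN7 (AT1G68830), which phosphorylates LHCII, changed by −0.86 (SE 0.09, limma adjusted p = 0.00133), and the integrase ALB3 (AT2G28800) by −0.46 (SE 0.09, adjusted p = 0.00773).

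Of 11 transcriptional regulators, 3 were lower and 3 were higher on the deposited scale, and 5 were lower and 1 was higher after rescaling. GLK1 (AT2G20570) and GLK2 (AT5G44190) activate antenna genes. GLK1 had 49.9 and 53.0 FPKM in dividing tissue against 64.2 and 56.9 FPKM in non-dividing tissue and did not pass (limma adjusted p = 0.0945), while GLK2 was lower (log2 fold change −0.34, SE 0.11, limma adjusted p = 0.0383). Both were called lower after rescaling (limma adjusted p = 0.00518 for GLK1 and 0.00427 for GLK2). The plastid sigma factors, which direct transcription of chloroplast genes, split. SIG5 (AT5G24120) had 10.7 and 11.2 FPKM in dividing tissue against 53.3 and 70.0 FPKM in non-dividing tissue, giving a log2 fold change of −2.38 (SE 0.15, limma adjusted p = 0.000367) below that of every photosystem gene. SIG6 (AT2G36990) had 39.8 and 40.9 FPKM in dividing tissue against 21.3 and 21.4 FPKM in non-dividing tissue (0.89, SE 0.08, limma adjusted p = 0.000805). SIG1 (AT1G64860) was lower, with a log2 fold change of −0.43 (SE 0.08, limma adjusted p = 0.00672). HY5 (AT5G11260) and CGA1 (AT4G26150), light-regulated transcription factors, were higher on the deposited scale (0.77 and 0.90) but not after rescaling, where only SIG6 of the 11 was called higher.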

How the data were processed

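Poly-A RNA of 2 dividing and 2 non-dividing libraries was compared; groups and replicate numbers were taken from the labels. Per the submitters' processing notes, the authors used TopHat 1.2.0, Bowtie 0.12.7, SAMtools 0.1.13 and the build TAIR9, and deposited the FPKM that Cufflinks 0.9.3 gave for each annotation and library. Handling of reads that map to several places is not given in the sources used here, and the read numbers behind single values were not computed, although the study lists the mapped reads of each library. Log2 fold changes were calculated with limma 3.58.1 (lmFit, eBayes with a trend) in R 4.3.3 on log2(FPKM + 1) of annotations averaging 1 FPKM or more; tests were two-sided, p-values were adjusted by Benjamini-Hochberg over all of them, and the threshold was 0.05; the pseudocount understates changes of low genes. With 2 libraries against 2, exact permutation p-values cannot fall below 0.333 and were not used. For rescaling, each library was divided by a factor, its median ratio to the mean of the libraries across 17442 annotations.

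Replicate number and transgenic line coincide in the labels (1 for HTR5-GFP, 2 for HTR13-GFP), so the numbers pair the libraries; a supplementary list of the study numbers all of them replicate 1, and the labels were followed. Deviations of same-numbered libraries from the tissue means had a Pearson correlation of 0.257 across 17967 annotations, and a fit with the replicate number as a block was run as an alternative. Members and gene lists were chosen with earlier results of these data known. Per-library values are given for the highest and lowest members of each family, those with the largest and smallest change and all copies of multi-copy sets; other genes named belong to lists of electron transport partners, LHC-like proteins, assembly factors and kinases, regulators and tissue markers, except where a result turned on them. Promoters, coding identities (global alignment of the longest coding sequence, Biopython 1.88) and unique 36-base stretches (a length chosen here) came from RefSeq TAIR10.1, and figures from matplotlib 3.10.9 under Python 3.11.15. Annotation starts were raised by 1 to count from 1. Alternatives covered the pseudocount, the filter, the block, scaling, a minimum fold change, the variance trend, overlapping annotations and each library in turn.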

Additional observations from a re-analysis of the deposited data

Results flagged for a closer look

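None of the 47 members changed in opposite directions in the 2 lines. Among the other genes of the pathway, 2 did, and the difference between the lines was not tested. LPA1 (AT1G02910), a photosystem II assembly factor, had a log2 ratio of dividing to non-dividing tissue of 0.19 for the HTR5-GFP line and −0.075 for the HTR13-GFP line. SIG2 (AT1G08540), a plastid sigma factor, had −0.014 for the HTR5-GFP line and 0.19 for the HTR13-GFP line.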

How the results depend on the processing

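Of the 47 members, 36 were called lower and 3 higher in dividing tissue. With no filter on mean FPKM these numbers were 3 and 1, although fold changes were the same and 2386 of all annotations were lower and 8210 higher. Without a filter and without the variance trend they were 24 and 1, and with the filter but without the trend 41 and 3 (both chosen after seeing the data). The fit with the filter but without the trend called 3242 of all annotations lower and 9249 higher. A minimum fold change of 1.5 gave 4 lower and 1 higher, and 25 lower and 0 higher after rescaling (chosen after seeing the data). A pseudocount of 0.1 gave 34 lower and 3 higher, against 3216 and 9181 of all annotations, and LHCB1.3 and PETC lost their calls. Rescaling gave 43 lower and 1 higher, the same with a replicate block 44 and 1, and quantile normalization 24 and 1. With the replicate block alone 38 were lower and 3 higher, against 3625 and 9723 of all annotations. The block gained LHCB1.1 and LHCB4.2 and changed no other call of a member. Leaving out each library in turn gave between 11 and 27 lower and between 1 and 2 higher. Over all annotations 3271 were lower and 9282 higher; rescaling gave 5503 and 5585, quantile normalization 5243 and 5770, rescaling with the block 5934 and 5992, the minimum fold change 1249 and 3676, both together 2154 and 1965, no filter without the trend 1768 lower, and leaving out libraries between 1868 and 2999 lower and between 5661 and 8624 higher. The ratio of sums moved from 0.597 to 0.450 with rescaling and lay between 0.564 and 0.629 without each library. Signs turned under rescaling, with or without the block or the minimum fold change, for LHCA6 (−0.32) and PSBS (−0.10), without the HTR5-GFP library of dividing tissue for LHCA6 (−0.042, the lowest of a range up to 0.19), and under quantile normalization for LHCB1.1 (0.15), LHCB1.2 (0.12), LHCB2.3 (0.0050), LHCB5 (0.092), LHCA1 (0.0052) and LHCA6 (−0.14). Quantile normalization gives annotations of equal rank equal values, so LHCB1.3, ranked first in every library, cannot differ there. The cause of the other changes was not tested. With 2 libraries per tissue, the differences of LHCB2.3 and LHCA6 did not exceed the spread between libraries on the deposited scale.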
